A study of Mus musculus with 40 samples.

Results

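Nr1i2 and Nr1i3 encode the pregnane X receptor (PXR) and the constitutive androstane receptor (CAR), and their upstream DNA was covered in liver by 9 of the 300 CpGs of a bisulfite amplicon panel, 5 at Nr1i2 and 4 at Nr1i3. The members are all CpGs of the panel that lie in the 2 regions amplified upstream of these genes, a rule set by position. They make up 2 of the 23 places in the genome that the panel covered, and all 9 passed the filter on coverage that left 253 CpGs at 19 loci for testing. The 40 animals were male C57BL/6J mice (C57BL/6 in the labels) of 9 weeks whose dams received a low fat (LF) or a high fat (HF) diet and which were themselves weaned onto the LF or the HF diet, 10 animals in each combination. Groups are named by maternal diet and then by post-weaning diet, so that LL had LF dams and the LF diet, HL had HF dams and the LF diet, LH had LF dams and the HF diet, and HH had HF dams and the HF diet. Dams were on their diet before mating, in pregnancy and until weaning, so these periods of maternal exposure cannot be told apart. Whole liver was used, so a change in cell composition and a change within one cell type cannot be told apart either. Littermates could enter both post-weaning diets, and the labels do not say which animals shared a dam, so animals may not be independent.

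Both receptors are transcription factors of the nuclear receptor superfamily and are known for high expression in liver. In response to drugs, bile acids, steroids and other foreign or endogenous compounds they act as heterodimers with the retinoid X receptors (RXR). They switch on genes of detoxification, such as the cytochrome P450 genes of the Cyp3a and Cyp2b families. CpG methylation is the addition of a methyl group to the cytosine of a CG pair. Bisulfite changes unmethylated but not methylated cytosine into a base read as T, so the share of reads that keep a C gives the methylation level.

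The 2 amplified stretches are shown because both carried few CpGs and differed in the exact genomic matches of the sequence around their CpGs. They are given 5′ to 3′ on the plus strand of the mouse build NCBIM37 (mm9), with each CpG in capitals.
Nr1i2 amplified stretch: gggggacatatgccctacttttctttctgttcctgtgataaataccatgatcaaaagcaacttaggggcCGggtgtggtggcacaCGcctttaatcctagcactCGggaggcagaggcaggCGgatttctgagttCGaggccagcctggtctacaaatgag
Nr1i3 amplified stretch: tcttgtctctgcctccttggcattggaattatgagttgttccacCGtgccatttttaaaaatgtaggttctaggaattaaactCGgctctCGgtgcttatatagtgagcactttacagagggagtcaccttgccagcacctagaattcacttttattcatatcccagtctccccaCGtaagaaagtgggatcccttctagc
The Nr1i2 stretch (chr16:38296287-38296447, 161 bp) lay 1377 bp upstream of Nr1i2 (ENSMUSG00000022809.4, minus strand, chr16:38248409-38294910). Its CpGs are numbered along the plus strand, at positions 38296356, 38296372, 38296391, 38296408 and 38296422, so that Nr1i2_1 was 1446 bp and Nr1i2_5 1512 bp upstream of the gene start. The 3′ end of the neighbouring gene 4932425I24Rik lay 1393 bp from the same stretch on its other side. The Nr1i3 stretch (chr1:173143341-173143541, 201 bp) lay 560 bp upstream of Nr1i3 (ENSMUSG00000005677.7, plus strand, chr1:173144101-173150832). Its CpGs were at positions 173143385, 173143424, 173143431 and 173143516, from 716 bp (Nr1i3_1) to 585 bp (Nr1i3_4) upstream of the gene start. No annotated gene, exon or UTR overlapped either stretch in GENCODE M1, so all 9 CpGs were intergenic.

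The sequence around the Nr1i2 CpGs resembles the mouse B1 short interspersed element, a repeat family related to the 7SL RNA gene. This likeness was not tested. The window of 32 bases around each CpG was searched for exact matches on both strands of NCBIM37. Nr1i2_1 had 1 match, its own site, Nr1i2_2 had 17, Nr1i2_3 had 368, Nr1i2_4 had 12728 and Nr1i2_5 had 12559. The 4 windows of Nr1i3 each had 1 match. A count of exact matches cannot show whether a stretch is a diverged repeat, and no repeat annotation was used. Primer sites were searched as exact matches in the fully bisulfite-converted genome, and 1 primer of each pair had a unique site. The forward primer of Nr1i2 and the reverse primer of Nr1i3, shown for this reason, each matched 1 site.
Nr1i2 forward primer: gggggatatatgttttatttttttt
Nr1i3 reverse primer: actaaaaaaaatcccactttcttac
The other primers matched 36 sites (Nr1i2 reverse) and 52 sites (Nr1i3 forward), and each pair gave 1 product under 1000 bp. The cytosine of Nr1i2_5 and that of Nr1i3_4 were directly next to the reverse primer.

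The regions were the most CpG-poor of the panel. The 1000 bp around the locus held 9 CpGs at Nr1i2 and 8 at Nr1i3, against 16 to 111 at the other 21 places. The promoter windows of the genes themselves, 300 bases around the RefSeq start in GRCm38.p6, lay outside both amplified stretches and were below the median in CpGs. They held 2 CpGs at Nr1i2 and 3 at Nr1i3, and the median over 32851 promoter windows was 7. Of all windows, 23.3% held as few CpGs as Nr1i2 or fewer, and 31.4% as few as Nr1i3 or fewer.

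Depth at the members was high in every animal with a value. Nr1i2 was covered in 38 of the 39 animals analysed and Nr1i3 in all 39, since LH replicate 5 had no value at Nr1i2 and HL replicate 1 was not analysed here. Total reads per CpG ranged from 7272 to 97458 at Nr1i2 and from 5265 to 96950 at Nr1i3. In the animal with the fewest reads at Nr1i2_5, LH replicate 8, methylation was 87.0% with a 95% Wilson interval of 86.2 to 87.7%. At every Nr1i2 CpG and at Nr1i3_2 and Nr1i3_3 all totals and all methylated counts were even numbers, and Nr1i3_2 had a median of 2.00 times the reads of Nr1i3_1, whose totals were even in 21 of 39 animals. Reads at these CpGs thus came in pairs, and in the whole panel all totals were even at 146 of the 300 CpGs. Whether a pair was 1 fragment is not given in the sources used here, and if it was, intervals, which cover counting error only, are too narrow there.

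Methylation was near complete at Nr1i2 and partial at Nr1i3. The locus level, the mean over the CpGs of a locus, was 94.3% ± 0.509 (SD, n = 38 animals) at Nr1i2, with a range of 93.1 to 95.3%. At Nr1i3 it was 32.0% ± 3.78 (SD, n = 39), with a range of 24.8 to 42.6%. Within an animal the difference Nr1i2 minus Nr1i3 was 62.1 ± 3.83 percentage points (SD, n = 38), and it was between 51.9 and 70.5 points in every one of them. Over these 38 animals, the SD in percent at Nr1i3 was 7.27 times that at Nr1i2. On the scale of log2(methylated/unmethylated), which stretches values near 100%, the SDs were 0.24 at Nr1i3 and 0.14 at Nr1i2. In both loci the variance between animals was above the binomial variance of reads counted as independent. At the median CpG it was 27.0 times that variance at Nr1i2 and 162 times at Nr1i3. If a read pair was 1 fragment, these ratios are too high at the paired CpGs. Noise from bisulfite treatment or amplification was not separated from differences between animals.

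Along the Nr1i2 stretch the CpG next to the primer stood below the rest. Nr1i2_5 had a level of 87.9% ± 1.73 (SD, n = 38, range 84.4 to 92.1%) and was the lowest CpG in 38 of 38 animals. The other levels were 96.4% ± 1.005 at Nr1i2_1, 96.8% ± 0.598 at Nr1i2_2, 94.8% ± 0.728 at Nr1i2_3 and 95.3% ± 0.681 at Nr1i2_4. Nr1i2_2 was the highest CpG in 25 animals, Nr1i2_1 in 12 and Nr1i2_4 in 1. Nr1i2_4, whose window had about as many genomic copies as that of Nr1i2_5, was at the level of the other CpGs. Whether copy number or the primer bears on the level of Nr1i2_5 was not tested.

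Along the Nr1i3 stretch the CpGs differed less from each other than the animals did. The levels were 29.5% ± 3.67 (SD, n = 39) at Nr1i3_1, 31.1% ± 3.61 at Nr1i3_2, 34.5% ± 3.94 at Nr1i3_3 and 32.8% ± 4.21 at Nr1i3_4. Nr1i3_3 was the highest CpG in 36 of 39 animals and Nr1i3_1 the lowest in 34. Nr1i3_2 and Nr1i3_3 were 7 bp apart, and Nr1i3_3 was on average 2.53 ± 0.773 points above the locus level of the same animal while Nr1i3_2 was 0.904 ± 0.719 points below it. Nr1i3_4, like Nr1i2_5 next to a primer, was 0.822 ± 0.811 points above the locus level.

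**Figure D1:**
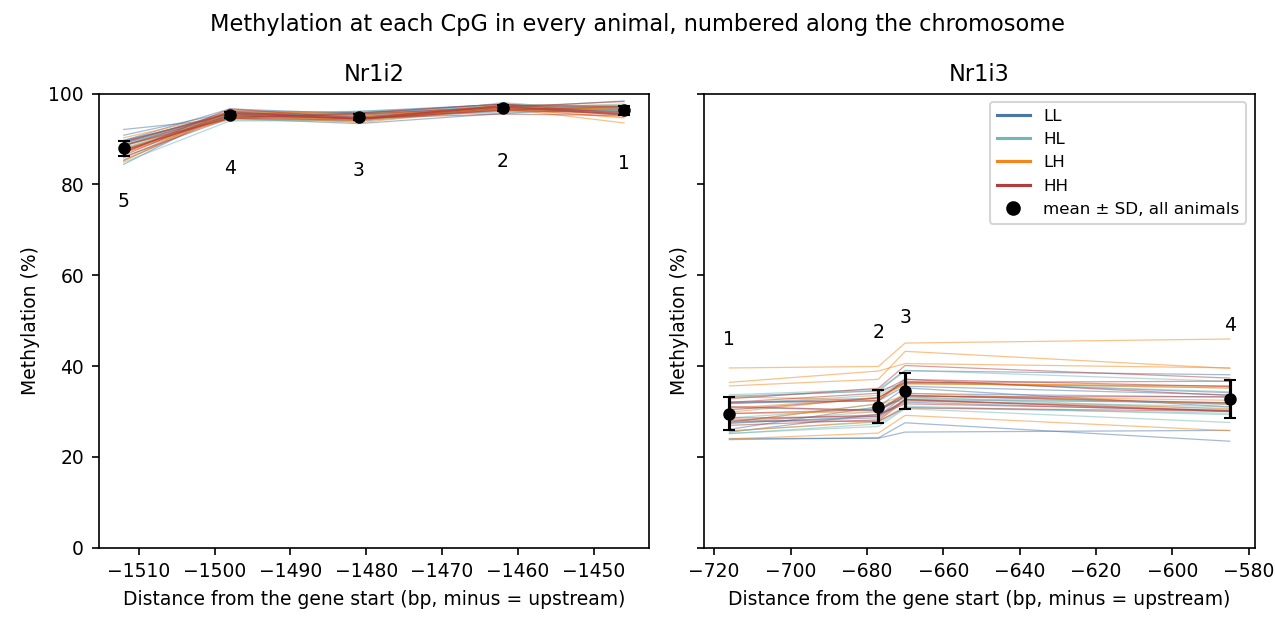
Methylation (%) at the 5 Nr1i2 and 4 Nr1i3 CpGs against distance from the gene start in bp, with 1 thin line per animal coloured by group and black points for the mean ± SD over animals. Nr1i2 lines stay between 84.4 and 98.4% and dip at CpG 5, and Nr1i3 lines run nearly parallel between 23.5 and 46.0%.

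Whether the CpGs of a locus vary together between animals was tested on values from which the group means had been removed, with 19 correlations in the family. At Nr1i3 all 6 pairs of CpGs were correlated, with Pearson's r from 0.91 to 0.96 and Spearman's rho from 0.91 to 0.95. The permutation p was 1e-05 for each, the smallest that 100000 resamples can give (adjusted p 3.17e-05, n = 39). Without the 2 animals farthest from the median on the first CpG of a pair, r was 0.89 to 0.95. At Nr1i2 the 10 pairs had r from -0.35 to 0.42, 5 of them positive, and 1 passed the adjusted threshold. This pair was Nr1i2_3 and Nr1i2_4 (r = 0.42, rho = 0.43, permutation p 0.00837, adjusted p 0.0227, n = 38), with r = 0.32 without the 2 farthest animals. The low-lying Nr1i2_5 had r = 0.32 with Nr1i2_1 and r = -0.35 with Nr1i2_3 (permutation adjusted p 0.113 and 0.0729). The CpGs of a locus were read from the same fragments of the same animal.

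**Figure D2:**
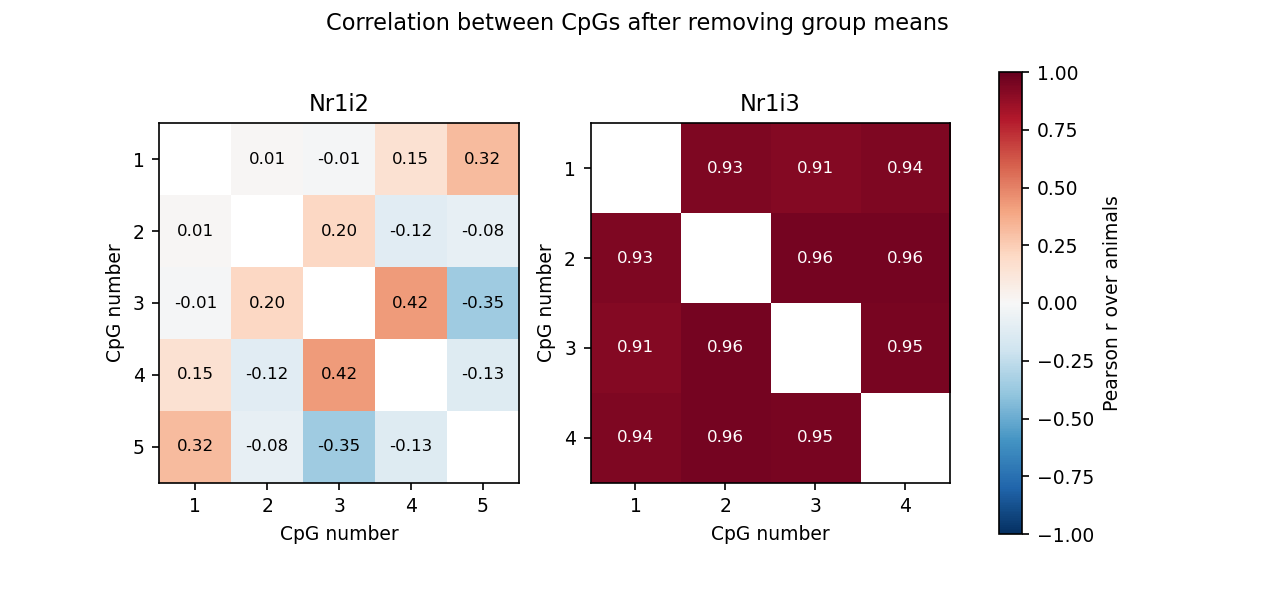
Pearson r over animals between the CpGs of each locus, after removing group means, with CpG numbers on both axes and colour from -1 (blue) to 1 (red). All Nr1i3 pairs are between 0.91 and 0.96, while Nr1i2 pairs are between -0.35 and 0.42.

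The 2 receptor loci showed no detectable relation to each other. Their group-centred levels had r = -0.03 and rho = -0.05 (permutation p 0.871 and 0.761, adjusted p 0.951 and 0.831, n = 38 animals). As measured, without removing group means, r was -0.19 and rho -0.24 (permutation p 0.244 and 0.151). Neither locus was correlated with its own log10 median reads, with r = 0.07 at Nr1i2 and r = 0.02 at Nr1i3 (permutation p 0.671 and 0.921, adjusted p 0.850 and 0.951).

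Among the 19 tested loci Nr1i2 ranked 2 and Nr1i3 ranked 6 by level. The nearest neighbour of Nr1i2 was Irs1_a, in a coding exon of insulin receptor substrate 1, at 94.5% ± 1.21 (SD, n = 39), a gap smaller than either SD. The next locus below was the leptin locus Lep at 66.0% ± 3.51, and no Lep value reached the range of Nr1i2. Nr1i3 lay between the imprinted Peg3 at 46.8% ± 3.08 and Pck1, which encodes the gluconeogenic enzyme phosphoenolpyruvate carboxykinase, at 25.7% ± 6.37. The ranges of Nr1i3 overlapped those of both, and Pck1 was its nearest neighbour in level. Of the 19 loci, Nr1i3 had the third highest SD between animals and Nr1i2 ranked 10. As a description over animals, the loci whose group-centred levels followed Nr1i2 most closely were Irs1_a (r = 0.36, n = 38) and Plagl1 (r = 0.30, n = 38), and those that followed Nr1i3 were Pck1 (r = 0.41, n = 39) and Srebf2 (r = 0.29, n = 39). All loci of an animal share 1 library and liver.

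**Figure D3:**
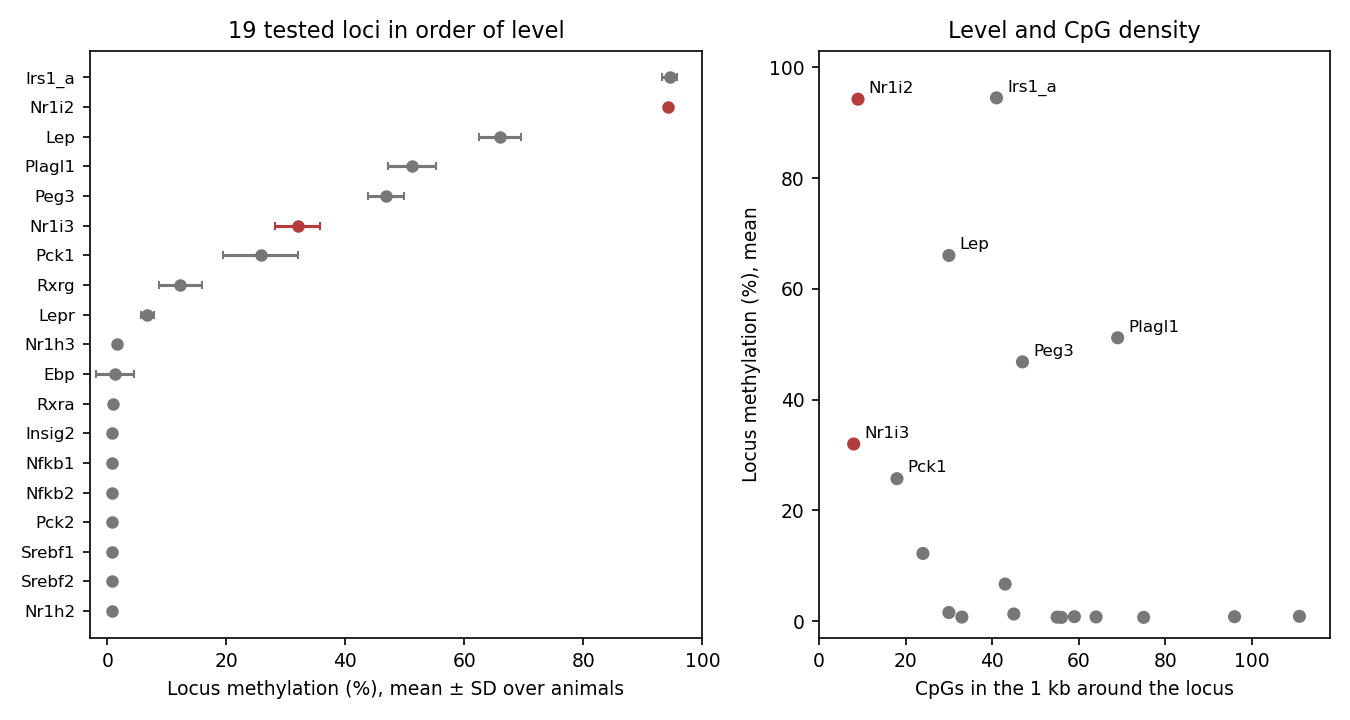
Left, locus methylation (%) as mean ± SD over animals for the 19 tested loci in order of level. Right, the same means against the number of CpGs in the 1000 bp around each locus. Nr1i2 and Nr1i3 (red) rank 2 and 6 by level and have the fewest CpGs, 9 and 8.

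The other nuclear receptors of the panel were mostly unmethylated. Rxra and Rxrg encode dimer partners of PXR and CAR, Nr1h2 and Nr1h3 the oxysterol-sensing liver X receptors, and Pparg a fatty acid receptor. Their locus levels were 0.881% ± 0.329 at Rxra (n = 38), 12.2% ± 3.62 at Rxrg (n = 39), 0.687% ± 0.105 at Nr1h2 (n = 39) and 1.57% ± 0.438 at Nr1h3 (n = 38). Pparg had no CpG that passed the filter, and its level was 0.765% ± 0.285 in the 32 animals with a value. The highest value of any animal at Rxrg, 27.0%, was within the range of Nr1i3. Of the 71 CpGs of these 5 loci, 53 were tested.

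The effect of maternal diet on offspring fed the LF diet was addressed by HL against LL. At Nr1i2 the lowest, median and highest animals were 93.1, 94.5 and 94.7% in HL (n = 9) and 93.8, 94.6 and 95.3% in LL (n = 10), so the groups overlapped over most of their range. The difference HL minus LL was -0.274 points (95% interval -0.773 to 0.218, exact permutation p 0.268, adjusted p 0.566). Without HL replicate 4 this became -0.124 points. At Nr1i3 the lowest, median and highest were 27.5, 30.7 and 36.1% in HL (n = 9) and 24.8, 30.6 and 36.2% in LL (n = 10), again with nearly the same range. The difference was 0.657 points (95% interval -2.64 to 3.98, exact permutation p 0.677, adjusted p 0.888). Its size rested on single animals, from 0.00850 points without LL replicate 10 and 0.0223 points without LL replicate 8 to 1.28 points without LL replicate 5. None of the 9 CpGs passed the adjusted threshold, as did none of the 253 CpGs of the panel (0.0%), and 0 of the 9 had an unadjusted p under 0.05 against 14.6% of the panel. The smallest p at Nr1i2 was at Nr1i2_4 (difference -0.539 points, exact permutation p 0.103, adjusted p 0.556), and that at Nr1i3 was at Nr1i3_2 (difference 1.15 points, exact permutation p 0.454, adjusted p 0.850). Nr1i2_4 was lower in HL than the LL median in 6 of 9 animals.

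The effect of maternal diet on offspring fed the HF diet was addressed by HH against LH. At Nr1i2 the lowest, median and highest animals were 93.4, 94.1 and 95.0% in HH (n = 10) and 93.4, 94.0 and 94.5% in LH (n = 9), and the ranges were close. The difference HH minus LH was 0.179 points (95% interval -0.246 to 0.612, exact permutation p 0.391, adjusted p 0.690). Without HH replicate 5 this became 0.0798 points. At Nr1i3 the values were 29.2, 31.7 and 36.4% in HH and 26.0, 33.8 and 42.6% in LH (n = 10 each), with the HH range inside that of LH. The SD was 2.51 in HH and 4.98 in LH, and the difference was -1.93 points (95% interval -5.64 to 1.78, p 0.288 in the parametric test used where both groups had 10 values, adjusted p 0.690). Without LH replicate 10 it was -0.974 points. Again 0 of the 9 CpGs passed (0.0% of the panel), and 0 of the 9 had an unadjusted p under 0.05 against 2.77% of the panel. The smallest p was at Nr1i2_5 (difference 0.485 points, exact permutation p 0.452, adjusted p 0.869) and at Nr1i3_2 (difference -1.99 points, parametric p 0.253, adjusted p 0.859).

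The effect of post-weaning diet in the offspring of LF dams was addressed by LH against LL, and here Nr1i2 had the smallest p of the 19 loci. The 9 LH animals had Nr1i2 levels of 93.4 to 94.5% with a median of 94.0%, and the 10 LL animals 93.8 to 95.3% with a median of 94.6%. All 9 LH animals lay below the LL median, though the groups overlapped. The difference LH minus LL was -0.590 points (95% interval -1.03 to -0.153, exact permutation p 0.0109), and it did not pass adjustment over the loci (adjusted p 0.207). At an unadjusted p under 0.05, 5.26% of the loci were called, which is Nr1i2 alone. Without the CpG next to the primer the difference was -0.446 points (exact permutation p 0.0619), an alternative chosen after seeing the data. Animals were numbered in runs, and among the 10 animals of the 2 runs that held both groups the within-run difference was -0.106 points (exact permutation p 0.640, where the smallest possible p is 0.02). What a run of numbers stands for is not given in the labels, and its part in the result was not tested.

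At Nr1i3 the LH animals ranged from 26.0 to 42.6% with a median of 33.8%, and the LL animals from 24.8 to 36.2% with a median of 30.6% (n = 10 each). The 3 highest LH animals, replicates 10, 7 and 6 at 42.6, 38.9 and 38.9%, were above every LL animal, and the lowest LH animal, replicate 5 at 26.0%, was below 8 of the 10 LL animals. The difference was 3.42 points (95% interval -0.694 to 7.53, parametric p 0.0978, adjusted p 0.411), with 8 of 10 LH animals above the LL median. Leaving out 1 animal gave 2.46 points (without LH replicate 10) to 4.30 points (without LH replicate 5, exact permutation p 0.0326 before adjustment). Within runs of animal numbers it was 2.77 points (exact permutation p 0.500). All 5 Nr1i2 CpGs had a lower mean in LH, by 0.0918 to 1.17 points, and all 4 Nr1i3 CpGs a higher one, by 3.01 to 3.89 points. The locus values are the means of these CpGs, so the shared directions add no separate evidence. None of the 9 passed the adjusted threshold (0.0% of the panel) and 0 of the 9 had an unadjusted p under 0.05, against 7.91% of the panel. The smallest p at Nr1i2 was at Nr1i2_1, with 95.8% ± 1.34 in LH and 96.7% ± 0.687 in LL (difference -0.871 points, exact permutation p 0.0882, adjusted p 0.714). Within runs of animal numbers this difference turned to 0.455 points (exact permutation p 0.200). Nr1i2_2 and Nr1i2_4 also turned positive there (0.109 and 0.146 points), while Nr1i2_3 and Nr1i2_5 stayed negative (-0.367 and -0.874 points). At Nr1i3 the smallest p was at Nr1i3_2, with 32.9% ± 4.68 in LH and 29.7% ± 3.44 in LL (difference 3.27 points, parametric p 0.0916, adjusted p 0.714).

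**Figure D4:**
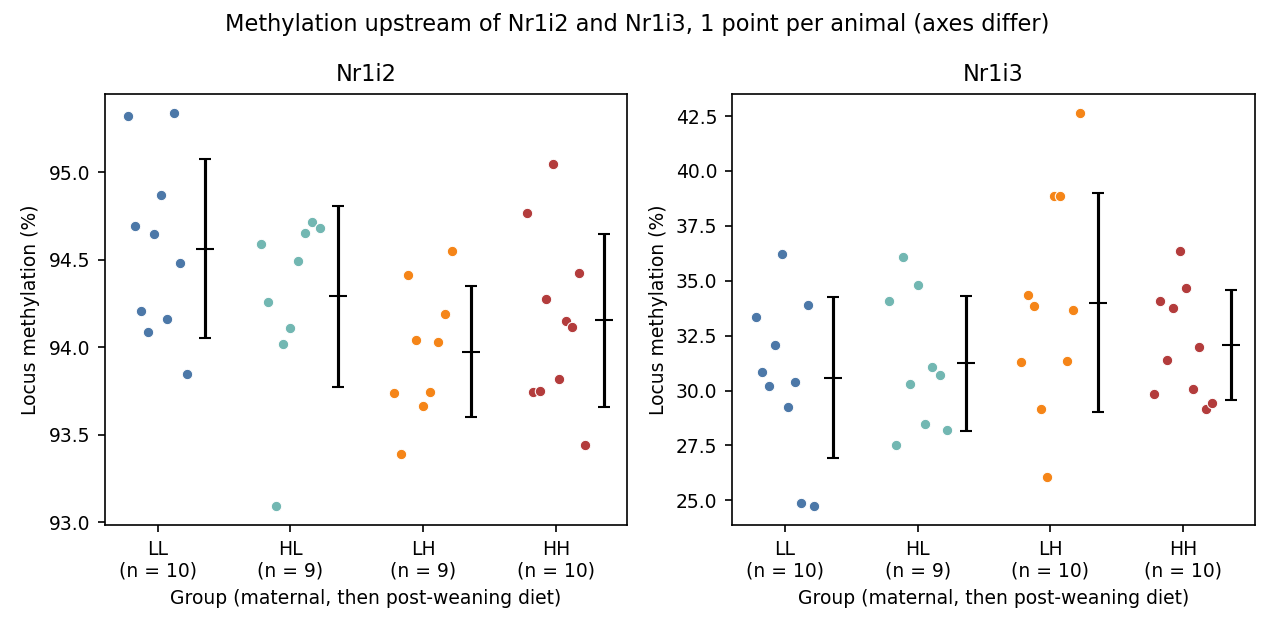
Locus methylation (%) at Nr1i2 and Nr1i3 by group, with 1 point per animal and black bars for mean ± SD. LH has the lowest mean at Nr1i2 (94.0%) and the highest at Nr1i3 (34.0%), and the points of all groups overlap.

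The effect of post-weaning diet in the offspring of HF dams was addressed by HH against HL. HH animals had a median of 94.1% at Nr1i2 and HL animals of 94.5%, with the ranges given for these groups above. The difference HH minus HL was -0.137 points (95% interval -0.620 to 0.356, exact permutation p 0.564, adjusted p 0.708). At Nr1i3 the difference was 0.830 points (95% interval -1.89 to 3.57, exact permutation p 0.519, adjusted p 0.708), and 6 of 10 HH animals were above the HL median of 30.7%. Leaving out 1 animal gave -0.286 points (without HL replicate 4) to -0.0577 points (without HH replicate 10) at Nr1i2, and 0.355 points (without HH replicate 5) to 1.43 points (without HL replicate 4) at Nr1i3. Of all 19 loci, 5.26% passed the adjusted threshold in this comparison, not Nr1i2 or Nr1i3, and 15.8% had an unadjusted p under 0.05. None of the 9 CpGs passed (0.0% of the CpGs of the panel), and 0 of the 9 had an unadjusted p under 0.05 although 12.6% of the panel did. The smallest p was at Nr1i2_1 (difference -0.696 points, exact permutation p 0.0989, adjusted p 0.545, lower than the HL median in 7 of 10 HH animals) and at Nr1i3_1 (difference 1.27 points, exact permutation p 0.321, adjusted p 0.748). Within runs of animal numbers, which left 12 animals, the differences were -0.208 points at Nr1i2 and 0.979 points at Nr1i3 (exact permutation p 0.388 and 0.550, smallest possible p 0.0125). Ordered by group mean, Nr1i2 ran from LL (94.6%) over HL (94.3%) and HH (94.2%) to LH (94.0%), and Nr1i3 from LH (34.0%) over HH (32.1%) and HL (31.2%) to LL (30.6%). No neighbours in these orders differed beyond their spread in the tests above.

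**Figure D5:**
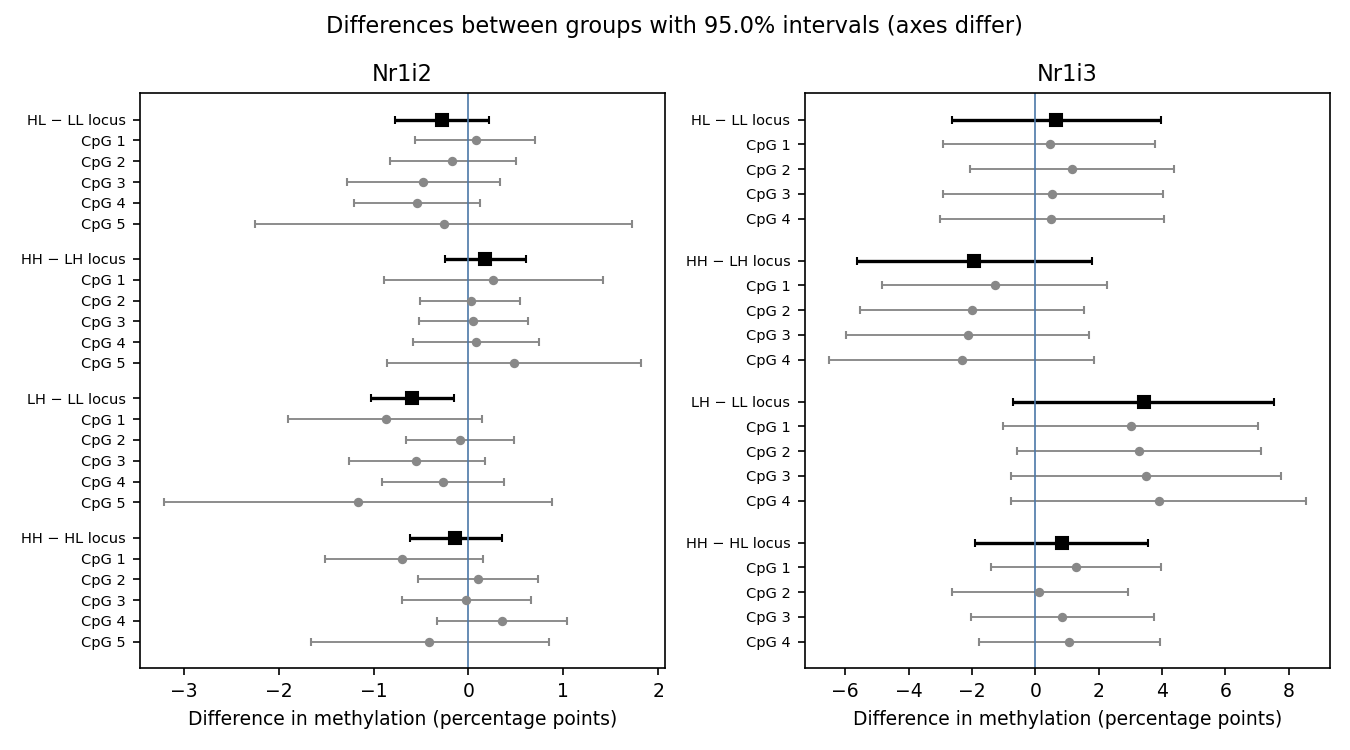
Differences between groups in percentage points for the Nr1i2 and Nr1i3 loci (black squares) and their CpGs (grey circles), with 95% intervals. The interval of 1 of the 8 locus differences leaves out 0, Nr1i2 in LH minus LL (-1.03 to -0.153), and no CpG interval does.

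Both diets were also fitted together over all 4 groups with limma. The difference between HF and LF after weaning, averaged over both maternal diets, was -0.363 points at Nr1i2 (95% interval -0.678 to -0.0492, p 0.0246) and 2.13 points at Nr1i3 (95% interval -0.261 to 4.51, p 0.0793). Neither passed adjustment over the 19 loci (adjusted p 0.234 and 0.376, limma), a threshold passed by 5.26% of all loci, with 10.5% of them under an unadjusted p of 0.05. Without HL replicate 4, the animal with the lowest Nr1i2 level, the Nr1i2 term was -0.438 points and passed (limma adjusted p 0.0392). In 38 of the 39 fits that each left out 1 animal it did not pass (limma adjusted p up to 0.405). The maternal term was -0.0472 points at Nr1i2 (95% interval -0.361 to 0.267) and -0.638 points at Nr1i3 (-3.02 to 1.75), with limma adjusted p of 0.896 and 0.868. The interaction, which asks whether the post-weaning difference depends on the maternal diet, was 0.453 points at Nr1i2 (-0.176 to 1.08, p 0.152) and -2.59 points at Nr1i3 (-7.36 to 2.18, p 0.278), both with a limma adjusted p of 0.640. The share of loci past the adjusted threshold was 0.0% for the maternal term and for the interaction.

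The other nuclear receptor loci gave no adjusted call either. Of their 53 tested CpGs, 0 passed in each of the 4 comparisons. At an unadjusted p under 0.05, 2 were higher and 1 lower in HL against LL, 1 higher and 1 lower in HH against LH, 2 higher and 1 lower in LH against LL, and 1 higher and 3 lower in HH against HL. Over all 253 tested CpGs the shares under that threshold were 14.6, 2.77, 7.91 and 12.6% in the same order. The counts are therefore not read as a result about these receptors. None of the CpGs counted was among the 10 of Rxrg, the partner receptor locus with the level nearest to that of Nr1i3.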

How the data were processed

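DNA from the liver of each animal was bisulfite treated, amplified with locus-specific primer pairs, pooled, barcoded per animal and sequenced in 1 lane. The authors determined methylation with Bismark (its version is not given in the sources used here) and, per the submitters' processing notes, the build mm9. They deposited, for each CpG in each animal, counts of methylated reads and counts of total reads, and the methylated fraction, which equalled the ratio of those counts. All 300 positions were a C or G of a CpG in NCBIM37, used here with GENCODE M1. The smallest total above 0 was 100 reads, and the sum over CpGs was 1530126 to 15531697 reads per animal. The 2 most alike libraries were 0.808 points apart on average over CpGs, so none was a copy of another. Of the value columns, 0 were unused.

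Percent methylation was 100 times methylated over all reads. The study's filter was applied (10 reads or more, in 36 animals or more), and CpGs within 1000 bp formed a locus, whose value was the mean over its tested CpGs. Where each group had 10 values, Student's test was applied, the parametric test of the report. Other comparisons of means used an exact permutation test (double the smaller tail). Intervals came from inversion of the same test. All tests were 2-sided, with Benjamini-Hochberg adjustment over all tested CpGs, or loci, and a threshold of 0.05. Diet terms were contrasts of group means in limma 3.58.1. Each p-value sets a group difference, a diet term or a correlation against the spread between these animals, treated as independent. In limma this spread is moderated over the tested loci. Members, lists and tests were chosen with earlier results of these data known. In each comparison and locus the CpG with the smallest p is named, and as like loci the nearest in level and the 2 with the highest r. Procedures were tested on simulated data. Software was R 4.3.3, scipy 1.17.1, numpy 2.4.6, pandas 2.3.3 and Python 3.11.15. Primer sequences are those of the study. Alternatives were exact permutation throughout, rank and quasi-binomial tests, limma on log2((methylated + 1)/(unmethylated + 1)), other coverage and animal minima, pooled reads, an ordinary linear model, adjustment over all comparisons, runs of animal numbers and leaving out each animal. Subsets of CpGs were added after seeing the data. The Lepr sequence and position are not reported here.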

Additional observations from a re-analysis of the deposited data

Results flagged for a closer look

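The highest and the lowest animal of each group were compared with the rest of the group at both loci and all 9 CpGs, by the gap to the nearest other animal relative to the range of the group (Dixon's criterion at 95%). Of the 44 sets of values, 3 held an animal past the critical value, and chance alone gives about 1 in 20. At the Nr1i2 locus HL replicate 4 had 93.1%, while the other 8 HL animals had 94.0 to 94.7%. The same animal was set apart at Nr1i2_5, with 84.9% against 87.5 to 89.4% in the others. LL replicate 8 had the highest value of its group at Nr1i2_1, 98.4% against 95.8 to 97.1%. No animal was set apart at Nr1i3.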

How the results depend on the processing

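Of 690 tested alternatives for the locus, diet term and single CpG differences, 1 passed the adjusted threshold, the post-weaning term at Nr1i2 without HL replicate 4 (-0.438 points, limma adjusted p 0.0392). Leaving out each animal gave -0.438 to -0.320 points for that term, and -0.0969 to 0.0275 points for the maternal term at Nr1i2, positive only without HL replicate 4. The adjusted p of Nr1i2 in LH against LL was 0.169 to 0.939 over the alternatives and 0.0782 to 0.393 without single animals. With runs of animal numbers as a block, Nr1i2_1 in LH against LL turned from -0.871 to 0.455 points. The count of member CpGs past the adjusted threshold was 0 in each comparison under every alternative run, and at an unadjusted p under 0.05 it was at most 3, without LH replicate 5 in LH against LL. In the quasi-binomial model 1 of the 9 had an unadjusted p under 0.05 in LH against LL and in HH against HL. In the main tests 7.91% of the panel was under that threshold in LH against LL and 12.6% in HH against HL. The panel shares under these alternatives are not given here, so the counts are not read as a result about the 9 CpGs. The level of Nr1i2 was 95.8% without the CpG next to the primer and 96.6% from Nr1i2_1 and Nr1i2_2 alone, both chosen after seeing the data. The correlation between the loci turned from -0.03 to 0.0108 without the 2 farthest animals. The causes were not tested. No analysis paired by litter was possible because the labels do not say which animals shared a dam. The labels give no replicate numbers, and those used here follow accession order. Requiring a value in every animal left out Nr1i2, and no run of animal numbers held both groups of a maternal comparison. At the median CpG, animals varied by 27.0 times the binomial variance of independent reads at Nr1i2 and 162 times at Nr1i3. These ratios are too high at the paired CpGs if a read pair was 1 fragment. What set this spread was not tested.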
